A study of Mus musculus with 6 samples.

Results

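A set of 42 mouse genes that act in mitosis and on the spindle was followed in embryos labelled embryonic day 7.5, with 3 libraries from embryos carrying the S254D knock-in of Rnf111 (KI) and 3 from wild type (WT). The genes were chosen by name for their known roles, with earlier results of these data known, and all 42 were found among the 21877 gene symbols of the expression table. Rnf111 encodes a RING-type ubiquitin ligase known for its part in Nodal and TGF-beta signalling, and S254D is a substitution of a serine by aspartate. KI and WT embryos differ in the labels by this allele alone. Zygosity, sex, litter and the number of embryos behind a library are not named in the sources used here, so a p-value here covers the scatter of these libraries alone, part of which may be technical.

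A dividing cell enters mitosis when cyclin-dependent kinase 1 binds its cyclins, builds a spindle of microtubules, attaches chromosomes through their kinetochores and waits at a checkpoint until all are attached. The anaphase-promoting complex then marks securin and cyclin B for destruction, separase frees the sister chromatids, and a contractile ring divides the cell. Most of these genes are transcribed late in the cell cycle, and the gastrulating mouse embryo is known for very fast division.

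Many promoters of this class are known to carry the cell cycle genes homology region (CHR), which binds the MuvB complexes that repress the genes early in the cycle and activate them late, and CCAAT boxes, which bind NF-Y. RefSeq promoter windows on GRCm38.p6, from 250 bases before to 50 bases after a start site, were at hand for 33 of the 42 genes, matched by symbol. The CHR letters TTTGAA were present on either strand in 23 of the 33 genes (69.7%), against 20.2% of 27025 genes with a window. The CCAAT letters occurred in 24 of 33 (72.7%) against 41.1%, and both motifs together in 20 of 33 (60.6%) against 8.0%. Within 50 bases of the start site on either side, TTTGAA was found in 21 of 33 (63.6%) against 5.7%. By 32851 windows in place of genes, the background shares for TTTGAA and CCAAT were 17.9% and 37.4%. E2F sites (TTTCCCGC, TTTGGCGC, TTTCGCGC or TTTGCCGC) were matched in Cdk1 alone (3.0%, against 2.6%). A match is a description of the letters and not a proven site. Matches of different motifs were counted separately, also where they overlap.

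The windows below are those of the most abundant member (Cdc20), of the cyclin whose KI values all lay above WT (Ccnb2), and of a kinase and a survival factor that differed in opposite directions in WT 3 (Plk1 and Birc5). Capitals mark TTTGAA and CCAAT, and base 251 is the start site.
Cdc20: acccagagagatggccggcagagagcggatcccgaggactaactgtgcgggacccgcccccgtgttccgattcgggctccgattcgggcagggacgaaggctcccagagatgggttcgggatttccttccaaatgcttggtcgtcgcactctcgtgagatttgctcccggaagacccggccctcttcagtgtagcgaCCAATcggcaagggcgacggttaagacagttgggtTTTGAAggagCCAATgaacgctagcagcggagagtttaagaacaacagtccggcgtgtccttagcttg
Ccnb2: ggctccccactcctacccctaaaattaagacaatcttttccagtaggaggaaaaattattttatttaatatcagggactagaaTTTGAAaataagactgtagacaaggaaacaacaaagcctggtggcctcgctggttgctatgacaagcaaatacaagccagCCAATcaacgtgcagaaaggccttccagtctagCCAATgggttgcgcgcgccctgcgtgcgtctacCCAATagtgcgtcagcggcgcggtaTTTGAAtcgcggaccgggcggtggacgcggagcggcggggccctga
Plk1: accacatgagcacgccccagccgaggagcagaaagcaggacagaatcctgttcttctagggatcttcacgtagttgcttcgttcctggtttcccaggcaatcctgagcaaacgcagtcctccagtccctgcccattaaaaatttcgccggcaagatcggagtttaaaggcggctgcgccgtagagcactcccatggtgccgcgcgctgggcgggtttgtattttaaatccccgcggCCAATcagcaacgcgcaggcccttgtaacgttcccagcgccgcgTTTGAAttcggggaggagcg
Birc5: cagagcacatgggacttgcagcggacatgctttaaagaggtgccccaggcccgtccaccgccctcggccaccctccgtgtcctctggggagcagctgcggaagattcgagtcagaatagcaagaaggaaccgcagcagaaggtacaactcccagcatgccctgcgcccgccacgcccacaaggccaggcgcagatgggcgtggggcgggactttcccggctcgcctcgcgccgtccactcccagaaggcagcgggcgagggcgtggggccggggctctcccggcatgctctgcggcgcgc
They lie on GRCm38.p6 at chr4:118437294-118437593 (minus strand), chr9:70421505-70421804 (minus strand), chr7:122159185-122159484 (plus strand) and chr11:117848987-117849286 (plus strand), in the order printed. In Cdc20 the TTTGAA lies at positions -18 to -13 between CCAAT boxes at -53 and -8. Ccnb2 has 3 CCAAT boxes, at -87, -54 and -21, ahead of a TTTGAA at position 5, and another TTTGAA upstream of them at -167 to -162. Plk1 has a single CCAAT box at -14 and TTTGAA at 31 to 36, and the Birc5 window holds neither set of letters.

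Values are RPKM, which divide the reads of a gene by its exon length and by library depth, and the depths implied by the values were about 9763000 to 11527000 reads in KI and 12677000 to 13559000 in WT. WT 3 and KI 2 stand apart from the other 4 libraries over the whole table, so results are also given without them. Visceral and yolk sac endoderm genes, all 11 of the list found, summed to 13.9 RPKM in KI 2, against 618 and 737 in KI 1 and KI 3 and 496 to 1401 in WT, with Apoa4 and Amn listed at 0 in KI 2. Cardiac genes (7 of 7 found) summed to 113 in KI 2 and 383 and 466 in KI 1 and KI 3, against 379 to 466 in WT. Neural genes (6 of 6) summed to 32.7 in KI 2 and 18.9 and 15.5 in KI 1 and KI 3, against 14.1 to 17.5 in WT. Primitive erythroid genes (7 of 7) summed to 2060 to 2443 in KI and 1780 to 2633 in WT. Epiblast genes (5 of 5 found) were low everywhere, at 4.99, 8.34 and 3.80 in KI 1, 2 and 3. In WT 1, 2 and 3 they summed to 4.22, 2.93 and 0.683. Of 8 maternal decidua markers 6 were listed at 0 in every library (Gzmd, Gzme, Gzmf, Gzmg, Cyp11a1 and Erv3), as were Prl3d1, Prl2c2 and Tpbpa of 7 trophoblast markers. The others were not at 0 throughout. The decidua list summed to 0.579 to 1.67 RPKM in KI and 1.05 to 3.54 in WT. The trophoblast list summed to 2.37 to 6.47 in KI and 5.3 to 6.28 in WT. Y-linked genes summed to 7.29, 50.9 and 0 RPKM in KI 1, 2 and 3, against 41.0, 42.5 and 62.0 in WT 1, 2 and 3. The part of cell makeup, sex or RNA quality in the results below was not tested, and in whole embryos fewer cells of a type and less RNA per cell cannot be told apart.

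The mitotic programme was strongly expressed in every library. Mean levels of the 42 genes ran from 1.70 RPKM for separase, Espl1, to 269 for Cdc20, with a median of 40.1 RPKM, against a median of 6.31 over the 10104 genes tested. Together they summed to 2588, 2368 and 2656 RPKM in KI 1, 2 and 3, against 2602, 2572 and 2392 in WT 1, 2 and 3, so KI 2 and WT 3 were the lowest library of their group. As a share of all RPKM this was 0.755% to 0.868% in KI and 0.740% to 0.842% in WT. The read counts behind a value ran from 57 for the phosphatase gene Cdc25b to 12792 for Ccnb1.

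No member differed between KI and WT past the threshold. With limma, fitted to log2(RPKM + 1) and Benjamini-Hochberg adjusted, 0 of 42 members passed at an adjusted p of 0.05, as did 0 of 10104 genes in the whole fit (0%), and 0 genes passed with voom on recovered reads. The lowest adjusted p of a member was 0.999. Before adjustment, 0 members and 121 of all tested genes (1.2%) had a p under 0.05, and the lowest p among the members was 0.151. The KI minus WT difference was positive for 19 and negative for 23 members, with a median of -0.03 and a range of -0.27 to 0.36. In the whole fit, 5940 genes had KI above WT on average and 4164 below, with a median of 0.05. Scaling moved both medians by a similar amount, to -0.10 for the members and -0.01 for all genes with TMM factors (16 members positive, 47.8% of all genes) and to -0.10 and -0.03 with equal medians (16 members, 44.1% of all genes).

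**Figure D1:**
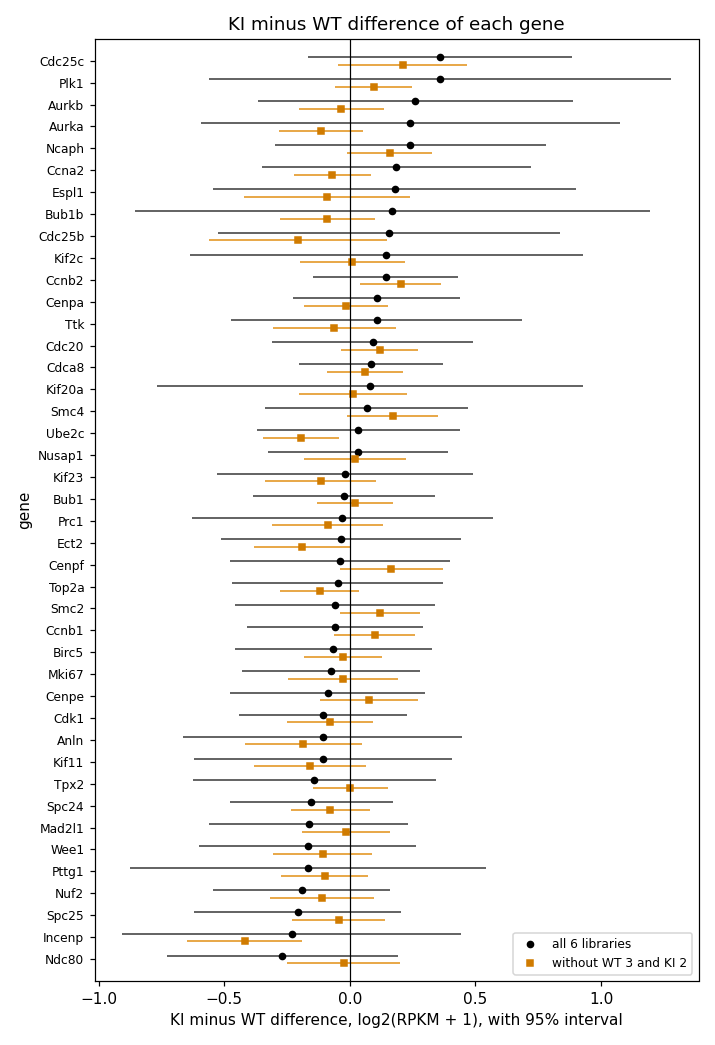
KI minus WT difference of each of the 42 genes on the log2(RPKM + 1) scale (horizontal axis), with its 95% interval as a line. Black points are the fit to all 6 libraries and orange squares the fit without WT 3 and KI 2; every black line crosses 0, and the orange lines are much shorter.

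The intervals limit how large a difference could be. For 39 of 42 members (92.9%) the 95% interval lay within a 2-fold change in either direction, against 81.8% of all tested genes, and for 21 (50%) within 1.5-fold, against 34.7%. The members whose interval reached beyond 2-fold were Plk1, Aurka and Bub1b. Without WT 3 and KI 2 the interval lay within 1.5-fold for 41 of 42 members (97.6%), against 84.2% of 9896 genes, and Incenp was the exception. That fit leaves out the 2 libraries that stood apart in these same values. Its intervals are therefore narrower (median half-width 0.183 for the members, against 0.449 with all 6 libraries) and may understate the uncertainty. Adding 1 RPKM before the logarithm shrinks differences of low genes such as Espl1 and Cdc25b.

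The entry kinases, cyclins and phosphatases had 6 positive and 3 negative differences, and 0 of 9 passed. Ccnb2, one of the B-type cyclins that activate Cdk1, was at 253, 247 and 253 RPKM in KI 1, 2 and 3, against 232, 209 and 243 RPKM in WT 1, 2 and 3. All KI values lay above all WT values, the log2 difference was 0.14 (SE 0.12, 95% interval -0.15 to 0.43), and the adjusted p was 0.999. Across all tested genes 3.8% had KI above WT in this way and 2.74% had KI below WT, where the members had 2 (Ccnb2 and Cdca8) and 1 (Spc24). The other B-type cyclin, Ccnb1, was at 205 ± 29.9 RPKM in KI, against 212 ± 11.2 in WT (n = 3 per genotype, SD), a level that may include reads of 4 near-identical pseudogenes. Cdk1 itself was at 66.8 ± 7.08 in KI, with 71.8 ± 4.36 in WT.

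Ccna2, the cyclin of S phase and early mitosis, was nearly level in KI at 71.6, 71.4 and 72.5 RPKM, against 74.2, 77.3 and 43.7 RPKM in WT. Its difference of 0.18 (SE 0.23) therefore rests on WT 3, and without WT 3 it was -0.08. Plk1 is the polo-like kinase that drives centrosome maturation and mitotic exit. It was at 86.8, 55.8 and 82.6 RPKM in KI, against 78.9, 79.5 and 29.7 in WT. Its log2 difference of 0.36 (SE 0.39) became -0.10 without WT 3. Without both WT 3 and KI 2 it was 0.095, where that of Ccna2 was -0.071. Cdc25c, a phosphatase that removes the inhibitory phosphates of Cdk1, was at 16.0, 15.4 and 19.2 in KI, against 14.5, 15.6 and 9.40 in WT, a difference of 0.36 (SE 0.22). The groups overlapped only at KI 2 and WT 2, and without WT 3 the difference was 0.15. Aurka, a centrosomal kinase needed for spindle assembly, was at 83.3, 73.0 and 91.7 in KI, against 95, 94.5 and 37.2 in WT. Here too WT 3 alone was far from its group. Cdc25b, another phosphatase acting on Cdk1, was low throughout, at 2.98, 2.91 and 2.16 in KI, against 3.30, 2.90 and 1.13 in WT. Wee1, a kinase that places an inhibitory phosphate on Cdk1, was at 17.5, 21 and 17.8 RPKM in KI, against 18.7, 19.6 and 25.9 in WT. Its log2 difference of -0.17 (SE 0.18) was -0.03 without WT 3.

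**Figure D2:**
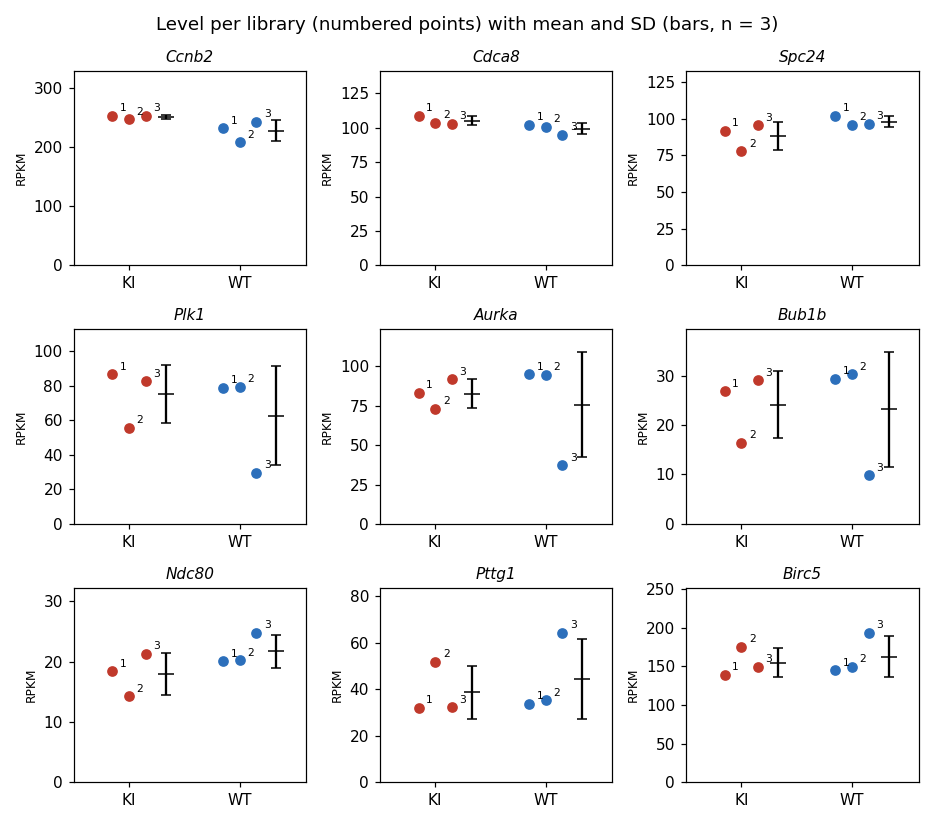
RPKM (vertical axis, from 0) of 9 genes in each library, with KI in red on the left and WT in blue on the right; numbers beside the points are replicates, and black bars give the mean and SD of 3 libraries. Ccnb2 and Cdca8 lie slightly higher and Spc24 lower in KI, while WT 3, and to a smaller extent KI 2, is far from its group for Plk1, Bub1b and Pttg1.

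Of the 7 kinetochore genes 6 had a negative difference, with a median of -0.15, and 0 passed. Without WT 3 and KI 2 their median was -0.02 (2 of 7 positive), and that of the 9 entry genes was -0.07 (4 of 9 positive). The groups of genes were not tested against each other. The 4 subunits of the NDC80 complex, which holds the microtubule at the kinetochore, all had negative differences. Ndc80 was at 18.4, 14.3 and 21.2 RPKM in KI, against 20, 20.2 and 24.8 in WT, a log2 difference of -0.27 (SE 0.20), the most negative of the 42. Its partner Nuf2 was at 22.5, 20.2 and 24.1 RPKM in KI, against 26.5, 24.1 and 26.0 in WT, and the groups touched only at KI 3 and WT 2. Spc24, which with Spc25 anchors the complex at the centromere, was at 91.8, 77.8 and 95.6 RPKM in KI, against 102, 95.8 and 96.4 in WT, a separation as narrow as 95.6 against 95.8. Spc25 was at 83.1, 89.4 and 95 in KI, against 90.6, 92.7 and 130 in WT. The differences of Nuf2, Spc24 and Spc25 were -0.19, -0.15 and -0.21, with unadjusted p of 0.242, 0.302 and 0.274 by limma and adjusted p of 0.999 each. Without WT 3 and KI 2 they were -0.11, -0.08 and -0.04, and that of Ndc80 was -0.02. Leaving out WT 3 alone gave -0.04 for Spc25, and leaving out KI 2 alone gave -0.12 for Ndc80 and -0.07 for Spc24. The centromeric histone gene Cenpa was at 60.0 ± 4.81 in KI, with 55.7 ± 4.39 in WT, and the large kinetochore proteins Cenpe (22.3 ± 2.82 in KI, 23.7 ± 1.98 in WT) and Cenpf (14.0 ± 1.16 in KI, 14.6 ± 2.76 in WT) differed by less than their spread (n = 3 per genotype, SD).

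The chromosomal passenger complex, which corrects faulty attachments and steers cytokinesis, had 2 positive and 2 negative differences among its 4 genes. Birc5, or survivin, was at 139, 175 and 150 RPKM in KI, against 145, 150 and 194 in WT, highest in KI 2 and WT 3 within each group. The borealin gene Cdca8 was at 109, 104 and 103 in KI, against 102, 100 and 94.8 in WT, one of the steadiest of the 42, with KI above WT by 0.08 on the log2 scale (SE 0.12). The kinase gene Aurkb was at 46.5, 43.2 and 43.8 in KI, against 46.7, 45.7 and 23.5 in WT, so that its difference of 0.26 became -0.05 without WT 3. The scaffold gene Incenp was at 11.2, 8.47 and 11 in KI, against 14.3, 16.1 and 7.60 in WT.

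In the checkpoint, Bub1, a kinase that recruits other checkpoint proteins, was at 76.3, 60.4 and 76.1 RPKM in KI, against 73.9, 76.3 and 65.3 in WT (log2 difference -0.02, SE 0.15). Mad2l1, the protein that holds Cdc20 inactive, was at 35.2, 36.0 and 37.5 in KI, against 36.8, 36.6 and 50.1 in WT, a difference of -0.17 (SE 0.17) that was -0.02 without WT 3. Ttk, the kinase at the head of the checkpoint, was at 12.8 ± 1.43 in KI, with 12.1 ± 3.63 in WT, and Bub1b at 24.1 ± 6.76 in KI, with 23.2 ± 11.6 in WT (n = 3 per genotype, SD). Bub1b had the widest interval of the set, -0.86 to 1.2, and both KI 2 and WT 3 were far below the rest of their group.

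Among the anaphase genes, Cdc20, which activates the anaphase-promoting complex, was at 301, 229 and 304 RPKM in KI, against 292, 265 and 224 in WT. KI 2 and WT 3 were the low values, and the log2 difference was 0.09 (SE 0.17). Its conjugating enzyme gene Ube2c was at 95.3 ± 17.2 in KI, with 92.5 ± 9.59 in WT, securin, Pttg1, at 38.7 ± 11.4 in KI, with 44.5 ± 17.2 in WT, and separase, Espl1, at 1.8 ± 0.381 in KI, with 1.6 ± 0.939 in WT (n = 3 per genotype, SD). The difference was negative for Pttg1 and positive for the other 3.

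Spindle motors and microtubule binders had 3 positive and 4 negative differences. Tpx2, which activates Aurka and nucleates spindle microtubules, was at 86.9, 55.6 and 87.8 RPKM in KI, against 86.0, 88.6 and 75.2 in WT, with KI 2 alone far off and a log2 difference of -0.14 (SE 0.21). Kif20a was at 39.6, 23.3 and 46.2 in KI, against 40.9, 43.8 and 19.9 in WT, and Kif2c at 40.6, 26.9 and 44.8 in KI, against 39.7, 45 and 19.9 in WT, both lowest in KI 2 and WT 3. The bipolar spindle motor gene Kif11 was at 24.0 ± 4.14 in KI, with 26.1 ± 5.63 in WT (n = 3 per genotype, SD). The midzone bundler Prc1 was at 12.3 ± 2.48 in KI, with 12.7 ± 3.43 in WT (n = 3 per genotype, SD). Another motor gene, Kif23, was at 9.13 ± 1.07 in KI, with 9.40 ± 2.16 in WT, and Nusap1 at 60.6 ± 7.41 in KI, with 59.0 ± 4.94 in WT (n = 3 per genotype, SD). For cytokinesis, Ect2, which is needed for the cleavage furrow, was at 30.9, 27.0 and 28.6 in KI, against 32.9, 35.2 and 22.1 in WT, and the ring scaffold Anln at 10.5 ± 1.80 in KI, with 11.6 ± 2.89 in WT.

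Among genes of chromosome structure, the condensin gene Smc4 was at 72.3, 84.9 and 81.2 RPKM in KI, against 66.9, 69.1 and 93.6 in WT. Ncaph, the kleisin that closes the condensin ring, was at 37.7, 28.7 and 38.8 in KI, against 34.0, 34.3 and 21.4 in WT, a log2 difference of 0.24 (SE 0.23) that was 0.02 without WT 3. The proliferation marker Mki67, which coats mitotic chromosomes, was the most even of all 42 genes, at 15.7, 14.2 and 14.4 in KI, against 15.9, 14.8 and 16.1 in WT. Its highest library was only 1.13 times its lowest. The topoisomerase gene Top2a was at 76.1 ± 7.53 in KI, with 79.4 ± 14.4 in WT, and Smc2 at 58.8 ± 2.23 in KI, with 62.0 ± 12.4 in WT (n = 3 per genotype, SD).

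**Figure D3:**
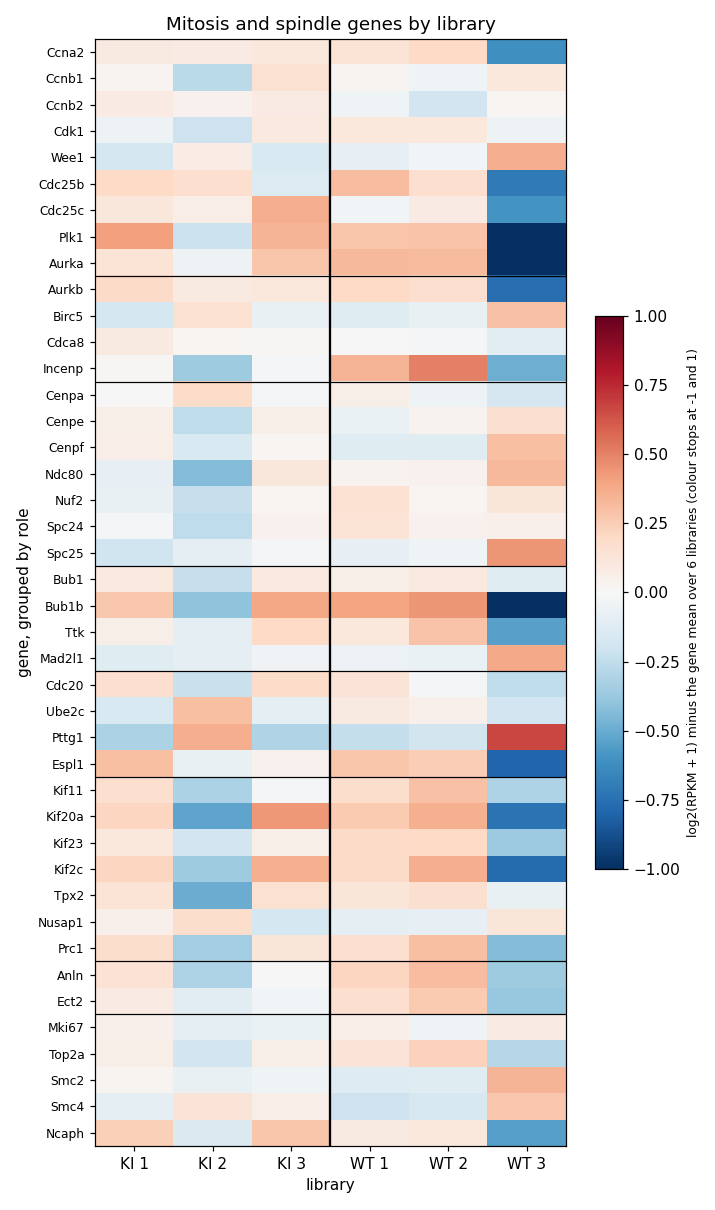
Level of each gene in each library on the log2(RPKM + 1) scale minus that gene's mean over the 6 libraries, with genes in rows by role, KI columns left of WT columns, red above and blue below the mean. KI 1, KI 3, WT 1 and WT 2 are pale in nearly all rows, and the strong colours sit in KI 2 and WT 3.

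KI 1, KI 3, WT 1 and WT 2 were close to one another whatever their genotype. Over these 4 libraries the highest value of a member was a median of 1.14 times the lowest, against 1.25 over all tested genes, and 1.53 times at most, for Cdc25b. Over all 6 the median was 1.55, against 1.88 for all tested genes, and the largest was 4.33, for Espl1. Without WT 3 and KI 2, 0 of 42 members passed, where 48 of 9896 genes (0.485%) did, and 16 members had a positive and 26 a negative difference (44.1% of all genes positive). With libraries weighted by their spread, 0 members passed and 93 of 10104 genes (0.92%) did. The weights came from these same values, at 7.75, 0.395 and 1.25 for KI 1, 2 and 3. For WT 1, 2 and 3 they were 0.695, 3.41 and 0.11. The weighted fit thus rests mostly on KI 1 and WT 2 and may understate the uncertainty. The member nearest to the threshold without WT 3 and KI 2 was Incenp, with 11.2 and 11 RPKM in KI 1 and KI 3, against 14.3 and 16.1 in WT 1 and WT 2 (log2 difference -0.42, limma adjusted p = 0.168). Ube2c (-0.20) and Ccnb2 (0.20) were also at an unadjusted p under 0.05 there, with adjusted p of 0.324 and 0.329 by limma. In that fit 3 of 42 members and 1131 of 9896 genes had an unadjusted p under 0.05 by limma. WT 1 and WT 2 had Y-linked RNA, KI 1 had little and KI 3 none, so genotype and Y-linked RNA cannot be told apart in that fit.

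WT 3 was the lowest of the 6 libraries for 22 of 42 members and the highest for 11, and KI 2 the lowest for 11 and the highest for 3. Over the 10104 tested genes WT 3 was the lowest for 5238 and the highest for 1963. There KI 2 was the lowest for 2081 and the highest for 1773. The difference of WT 3 from the mean of WT 1 and WT 2 was negative for 27 of 42 members (median -0.24), and over all tested genes for 7084 of 10104 (median -0.33). It was strongest in Bub1b, at 9.82 RPKM in WT 3 against 29.4 and 30.3 in WT 1 and WT 2, or 0.329 times their mean. Plk1 was at 0.375, Aurka at 0.393, Kif2c at 0.470 and Kif20a at 0.471 times the mean of WT 1 and WT 2, and Espl1 at 0.240 from low counts. Kif2c depolymerises microtubules to correct attachments, and Kif20a acts at the midzone. Others were higher in WT 3, with Pttg1 at 64.4 against 33.9 and 35.3 (1.86 times), Spc25 at 1.42, Smc2 at 1.39, Smc4 at 1.38, Mad2l1 at 1.37 and Birc5 at 1.31 times the mean of the other WT libraries. The genes in this paragraph and the next were picked after their values were seen, and the differences are descriptions of single libraries with no test.

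Several of these genes also stood out in KI 2. Its difference from the mean of KI 1 and KI 3 was negative for 33 of 42 members (median -0.23), against 5950 of 10104 genes (median -0.08). Related genes described below were lower too, with 80 of 114 further mitosis genes (median -0.17) and 13 of 20 S phase genes (median -0.21). Kif20a was at 23.3 RPKM in KI 2 against 39.6 and 46.2 in KI 1 and KI 3, or 0.543 times their mean. Bub1b was at 0.588, Kif2c at 0.631, Tpx2 at 0.637 and Plk1 at 0.659 times that mean. Pttg1 was higher, at 51.9 against 32.0 and 32.3 (1.61 times), as were Ube2c at 1.35 and Birc5 at 1.21 times. Tpx2 was thus low in KI 2 far more than in WT 3 (0.861 times), whereas Aurka, Aurkb and Ccna2 were at 0.834, 0.958 and 0.991 times in KI 2 and at 0.393, 0.509 and 0.577 times in WT 3. Across the 42 members the WT 3 and KI 2 differences had a Pearson r of 0.58, against 0.07 across all 10104 tested genes, and a Spearman rank correlation of 0.53, against 0.18. These are correlations across genes, which are not independent replicates, and each axis rests on 1 library against 2 others.

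**Figure D4:**
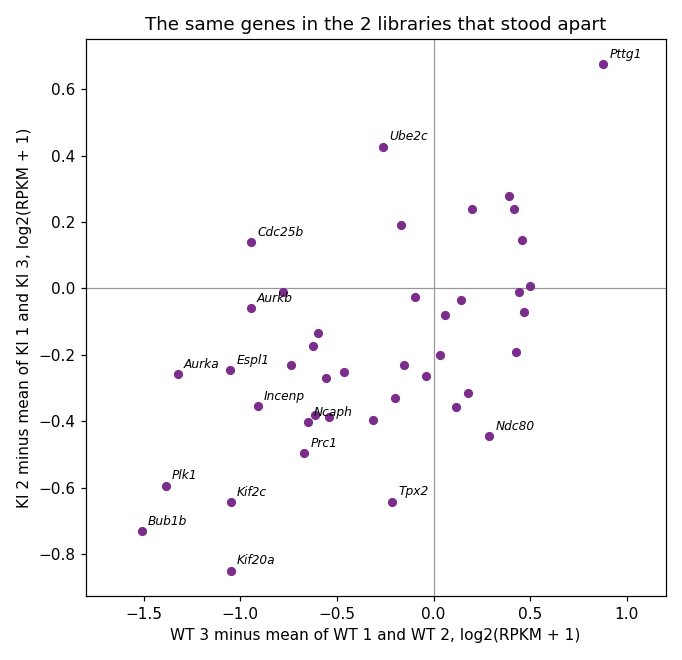
Difference of KI 2 from the mean of KI 1 and KI 3 (vertical axis) against that of WT 3 from the mean of WT 1 and WT 2 (horizontal axis) on the log2(RPKM + 1) scale, 1 point per gene, with genes far from 0 named. Bub1b, Plk1, Kif20a and Kif2c lie low on both axes and Pttg1 high on both, while Aurka and Aurkb lie low on the horizontal axis and nearer 0 on the vertical.

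The WT 3 difference moved with the base composition of the transcript. All 11 members with over 50% GC in their longest transcript were lower in WT 3 (median -0.94), as were 3715 of 4408 tested genes of that class (median -0.62). Of the 17 members under 45% GC, 7 were lower and 10 higher in WT 3 (median 0.12), and over tested genes 1406 were lower and 1396 higher (median 0.00). Pearson's r with GC was -0.51 across 42 members and -0.43 across 9920 tested genes for WT 3, and -0.08 and -0.08 for KI 2. With exon length on the log2 scale r was 0.07 across the members for WT 3 and -0.22 for KI 2. GC did not order all members, since Bub1b (50.4% GC) was at 0.329 times the mean of WT 1 and WT 2 and Cdc20 (55.6% GC) at 0.802 times. The part of GC content in these differences was not tested. By promoter, the 23 members with TTTGAA had a median WT 3 difference of -0.46 (17 lower) and the 10 without it one of 0.15 (3 lower), where tested genes with and without it were at -0.29 and -0.33. The median GC of these members was 46.6% with and 43.5% without the letters, so promoter letters and base composition were not separated here.

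**Figure D5:**
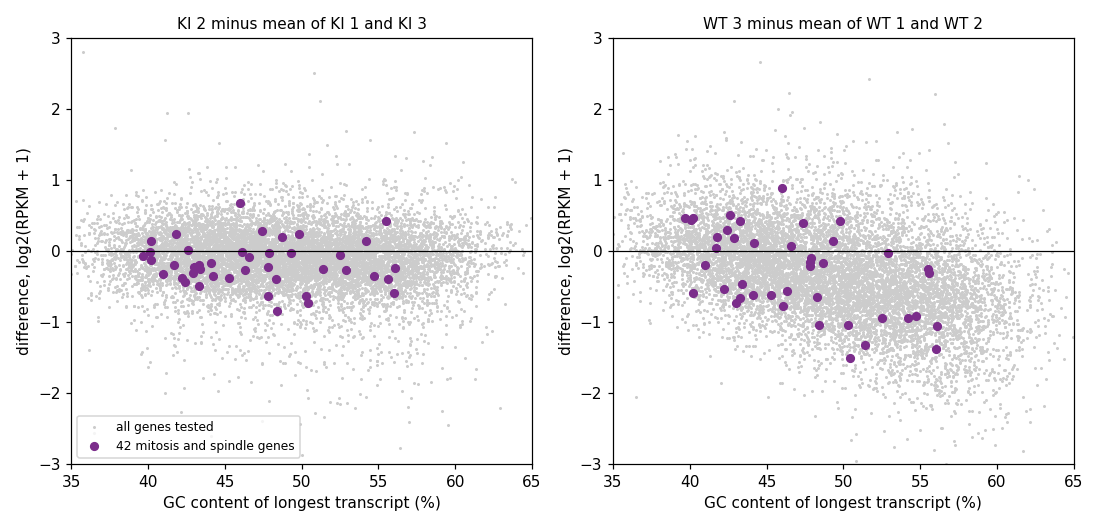
Difference of KI 2 (left) and WT 3 (right) from the mean of the other libraries of the group on the log2(RPKM + 1) scale (vertical axis, from -3 to 3), against GC content of the longest transcript (horizontal axis, from 35% to 65%). Purple points are the 42 genes and grey points all tested genes within these limits; in WT 3 both clouds slope downwards with GC, and in KI 2 they are nearly flat.

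Ratios between members follow changes within the set whatever the scaling, and 6 were tested. Plk1 over Birc5 was 0.623, 0.318 and 0.552 in KI 1, 2 and 3, against 0.545, 0.531 and 0.153 in WT 1, 2 and 3 (exact two-sided permutation p = 0.5). Aurka over Pttg1 was 2.60, 1.41 and 2.84 in KI, against 2.81, 2.68 and 0.578 in WT (exact p = 0.8). The ratio of Ccnb1 to Wee1, mitotic cyclin to the kinase that restrains it, was 12.0, 8.19 and 13.0 in KI, against 11.3, 10.3 and 8.64 in WT (exact p = 0.6). With 3 against 3 libraries the smallest p that the 20 arrangements allow is 0.1, and the exact p of the other 3 ratios (Ccnb1 to Cdc20, Cdc20 to Mad2l1, Ccna2 to Ccnb1) lay at 0.5 to 0.7. The pairs were chosen with earlier results of these data known.

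Other genes of the same machinery were read from the same fit. Of 118 further mitosis genes in 6 lists, 114 were tested, 0 passed in either direction, and 58 differences were positive and 56 negative (median 0.00). Other kinetochore genes split 11 positive to 13 negative, with Zwint at 106 ± 9.61 RPKM in KI, against 123 ± 24.1 in WT, and other checkpoint and anaphase genes 13 to 8, with Bub3 at 110 ± 4.35 in KI, with 107 ± 7.80 in WT (n = 3 per genotype, SD). Spindle and cytokinesis genes split 15 to 17, with the nuclear import gene Kpna2 at 558 ± 45.4 in KI, against 568 ± 9.20 in WT, and condensin and cohesin genes 7 to 5, with the cohesin gene Smc3 at 72.7 ± 9.91 in KI, with 80.4 ± 14.5 in WT. The entry and exit list split 4 to 7, with Cks1b at 491 ± 32.3 in KI, against 583 ± 156 in WT.

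The regulators that act on CHR and CCAAT promoters were measured too, with 14 of 17 tested, 8 positive and 6 negative, and 0 passed. Foxm1, a transcription factor of late cell cycle genes, was low, at 2.60, 2.39 and 2.67 RPKM in KI, against 1.97, 2.60 and 1.44 in WT. Mybl2, its partner in MuvB-dependent activation, was at 2.85, 2.87 and 2.70 in KI, against 2.33, 3.05 and 0.908 in WT. The MuvB subunit gene Lin37 was at 22.7, 18.3 and 22.0 in KI, all below the 25.9, 25.7 and 32.0 of WT, with the lowest p of these lists (log2 difference -0.39, limma unadjusted p = 0.0537, adjusted p = 0.999). Among the 14 genes, 2 had all KI values above WT and 2 all below. Among the 114 tested genes of the 6 lists these counts were 3 and 8, against 3.8% and 2.74% of all tested genes. Of the NF-Y subunit genes, Nfyc was at 32.9 ± 1.99 in KI, with 25.3 ± 6.62 in WT, and Nfyb at 28.7 ± 2.58 in KI, with 36.0 ± 6.75 in WT (n = 3 per genotype, SD), and neither passed.

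For comparison with earlier phases of the cycle, S phase genes had 15 positive and 5 negative differences (median 0.20), where 58.8% of all tested genes were positive, and 0 of 20 passed. This median was -0.04 without WT 3, -0.02 with library weights and -0.001 without WT 3 and KI 2, where 10 of 20 were positive. Their median difference of WT 3 from WT 1 and WT 2 was -0.89, against -0.24 for the 42 mitosis genes, with Mcm5 at 17.5 RPKM in WT 3 against 70.8 and 70.6. G1 cyclins and inhibitors had 7 positive and 4 negative differences, and 0 of 11 tested passed. Without WT 3 and KI 2 Ccnd1 passed there, at 10.5 and 11.8 RPKM in KI 1 and KI 3 against 17.7 and 18.5 in WT 1 and WT 2 (log2 difference -0.65, limma adjusted p = 0.0444). In the 2 libraries left out it was at 15.2 in KI 2 and 4.62 in WT 3, and over all 6 its difference was 0.07 (adjusted p = 0.999).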

How the data were processed

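Per the labels' protocols, RNA from 6 embryo libraries (3 KI, 3 WT) was captured on oligo(dT) beads and sequenced, with GRCm39 as the genome build, per the submitters' processing notes. No aligner, counter, annotation or strand setting is named in the sources used here. The labels call the deposited table raw counts, but the values the authors deposited are RPKM. Reads were recovered by multiplying values by merged exon length (GENCODE M21, on GRCm38, lengths for 97.1% of symbols) and by a fitted library depth. The depth of each library was fitted to the values that came out near whole. With it, 97.9% to 98% of values up to 2000 reads, zeros aside, were whole to within 0.05. That share is no independent check, since the same values set the depth. Of 21899 rows, 22 repeats of 20 symbols were dropped, keeping the row with the highest mean.

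KI was compared with WT with limma 3.58.1 (R 4.3.3), fitted to log2(RPKM + 1) using its trend and robust options, over genes at 1 RPKM or more in at least 3 libraries. All 42 members passed this filter. P-values were Benjamini-Hochberg adjusted over all genes tested, and the threshold was an adjusted p under 0.05. Members and lists were chosen with earlier results of these data known.

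Values by library were given for members without overlap between groups, the 6 with the lowest p in each direction and the most abundant of each of 8 roles. Further genes were named after their values were seen. Replicate numbers did not pair libraries, with correlations of deviations of 0.12, -0.05 and 0.01 for numbers 1, 2 and 3. TMM factors were computed directly. BLAST 2.17.0 (95% identity, at least 200 bases) found transcripts of other genes alike to Ccnb1, Mad2l1 and Mki67 (pseudogenes) and to Ccna2, Cdc25c and Kif20a (antisense neighbours). Without strand, reads of those and of other overlapping neighbours (Cdc25b, Plk1, Cdca8, Cdc20, Ube2c, Nusap1, Prc1 and Top2a) cannot be told apart from theirs.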

Additional observations from a re-analysis of the deposited data

How the results depend on the processing

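In the fit to all 6 libraries and in 16 alternatives (pseudocount, filter, scaling, moderation, voom on recovered reads, library weights, replicate block, and leaving out libraries), 0 of the 42 members passed. Genes past the threshold over the whole table were 0, except 93 with library weights and 48 with both WT 3 and KI 2 left out. With the replicate block, 0 genes and 0 members passed. All told 19 members were positive in the fit to all 6 libraries, 16 with TMM or equal-median scaling and 17 with voom. Leaving out single libraries gave 11 to 28 positive members, the 11 without WT 3 and the 28 without KI 2, and medians of -0.08 to 0.04. All tested genes moved likewise, with 36.7% positive without WT 3 and 63.4% without KI 2. Their medians ran from -0.055 without WT 3 to 0.101 without WT 2. The difference of Ccna2 reversed to -0.075 with library weights, -0.071 with both WT 3 and KI 2 left out, and ran from -0.075 to 0.33 over single libraries left out. That of Aurkb reversed to -0.034 with both left out and ran from -0.054 to 0.426, and that of Plk1 ran from -0.103 to 0.593. Each lowest value came without WT 3. The cause was not tested. Without WT 3 and KI 2, Ccnd1 was the 1 gene called in the other cell cycle lists. In that fit 3 of 7 primitive erythroid markers were called too, Hba-x and Hbb-y among them, against 0.485% of all genes tested. Of these 3 markers, 1 was higher in KI, so the calls went both ways. Genotype and Y-linked RNA cannot be told apart there. Intervals are widest for Bub1b, Plk1 and Kif20a, and counting error matters for Cdc25b and Espl1, with as few as 57 and 61 reads.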
